A study of Danio rerio with 12 samples.

Results

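The 8 genes described here build or specify the pigment cells of the zebrafish, and they were followed by chromatin accessibility in whole supt16h-/- embryos and wildtype siblings. They are mitfa, dct, tyr, tyrp1b, pmela, kita, ltk and pnp4a, chosen by name, and all 8 were present in the table of start sites. Each had 1 window, so they account for 8 of 15674 distinct windows, and all 8 were among the 15431 windows that passed a filter on low values (mean log2 signal of at least 4). None of the 8 windows passed the test for a difference between mutants and wildtype siblings.

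Zebrafish pigment cells arise from the neural crest, a migratory population that leaves the dorsal neural tube. Melanophores make black melanin inside melanosomes, iridophores reflect light from stacked guanine crystals, and xanthophores hold yellow pteridines and carotenoids. Mitfa switches on the melanophore programme, including the melanin enzymes, while the receptor tyrosine kinases Kita and Ltk act in melanophores and iridophores. The retinal pigment epithelium of the eye makes melanin with much the same enzymes, although it does not come from the neural crest.

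ATAC-seq, in which the Tn5 transposase cuts open chromatin and leaves sequencing adapters there, was carried out on whole, deyolked embryos raised at 28°C to 32 hours post fertilization. One group was supt16h-/- and the other was made of siblings labelled wildtype, and the labels name neither the mutant allele nor whether heterozygotes were among the siblings. The gene encodes a subunit of FACT, which opens nucleosomes ahead of polymerases and rebuilds them behind. Accessibility of its own start site checks no genotype, and that window (chromosome 7, 1441156 to 1445156) read 8.61, 8.51 and 8.75 in the mutants and 8.70, 8.22 and 8.72 in the siblings. Each library started from 50000 cells, the series text speaks of 40 embryos without dividing them among libraries, and each group held 3 biological replicates in 2 technical repeats, 12 libraries in all. Since whole embryos were used, fewer pigment cells and less open chromatin per cell cannot be told apart, and retinal and neural crest signal are read together.

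Signal was given on a log2 scale, normalized by the authors, for windows that span 4000 bp around each annotated start site (GRCz10) and that the table calls promoters. All windows have 1 length, so length does not separate the levels of genes. Mappability and the sequence preference of Tn5 were not examined, so the order of levels below only describes the signal. Library medians lay between 7.35 and 7.43. The table gives no counts, so depth is unknown. Values below are means ± SD over 3 biological replicates, and differences are mutant minus wildtype on the log2 scale with the limma standard error (SE). The log2 fold change in the authors' deposited table has the opposite sign to the library columns, so directions follow the column names and would turn if these were exchanged. That table gives the 8 genes log2 fold changes between -0.10 (pmela) and 0.31 (pnp4a), and its lowest adjusted p among them is 0.312 (kita). It lists an adjusted p of 1 for pnp4a, whose p of 0.0887 is the lowest of the 8, and the same entry for mitfa. These genes had the weakest windows of the 8, and whether their p-values were adjusted like the rest is unknown.

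The levels themselves formed a graded order. In the siblings kita stood highest, at 7.25 ± 0.13 (SD, n = 3), followed by tyr (6.67 ± 0.20), dct (6.28 ± 0.10), pmela (6.08 ± 0.18), ltk (5.83 ± 0.05), tyrp1b (5.56 ± 0.05), pnp4a (5.32 ± 0.06) and mitfa (5.17 ± 0.13). All 8 lay below the median of the tested windows, which was 7.40. By signal in the siblings, kita lay at the 46.3 percentile of all tested windows, tyr at the 33.0, pnp4a at the 6.22 and mitfa at the 4.41. The mutants showed the same order of means. Neighbours in that order whose sibling replicates overlapped were dct with pmela, pmela with ltk, and pnp4a with mitfa, while kita and tyr, tyr and dct, ltk and tyrp1b, and tyrp1b and pnp4a did not overlap. In the mutants the ranges of tyr and dct and of ltk and tyrp1b overlapped as well, and those of pmela and ltk did not. The gene of the lineage regulator thus had the lowest mean and a receptor gene the highest. The replicates of mitfa overlapped those of pnp4a in both groups, so these genes are not ranked apart.

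**Figure D1:**
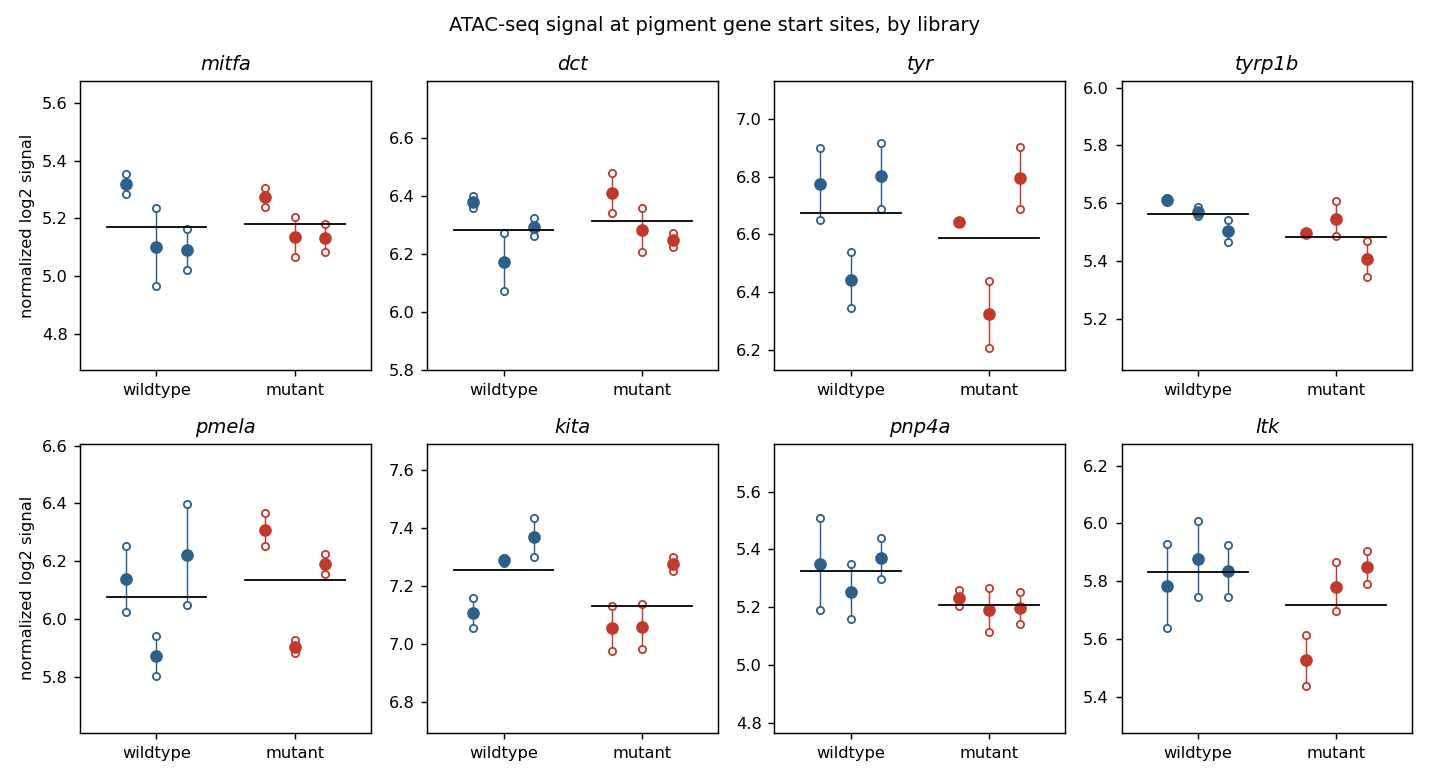
Normalized log2 ATAC-seq signal at the 8 start-site windows (y axis, spanning 1 log2 unit in each panel) in wildtype siblings and supt16h mutants. Open circles are technical repeats joined by a line, filled circles the mean of each biological replicate (numbers 1, 2 and 3 from left to right), and black lines group means. The filled circles of the groups overlap in every panel but that of pnp4a.

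mitfa encodes the basic helix-loop-helix leucine zipper factor without which zebrafish form no body melanophores. Its window (chromosome 6, 43427133 to 43431133, plus strand) read 5.27, 5.14 and 5.13 in mutant replicates 1, 2 and 3 and 5.32, 5.10 and 5.09 in the siblings. Replicate 1 was highest in both groups, and the groups overlapped. The difference was 0.01 ± 0.08 (SE, 95% interval -0.16 to 0.18), with a limma adjusted p of 0.963. A larger absolute difference was found at 94.7% of the tested windows.

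Of the genes for melanin synthesis, dct encodes dopachrome tautomerase, which acts late in the making of black eumelanin. Its window (chromosome 9, 53786137 to 53790137) read 6.41, 6.28 and 6.25 in the mutants and 6.38, 6.17 and 6.29 in the siblings. The ranges largely coincided, and the difference was 0.03 ± 0.08 (95% interval -0.14 to 0.20, limma adjusted p = 0.853).

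tyr encodes tyrosinase, the rate-limiting enzyme of melanin synthesis, whose loss leaves the animal albino. Its window (chromosome 15, 43774250 to 43778250) read 6.64, 6.32 and 6.80 in the mutants and 6.77, 6.44 and 6.80 in the siblings. It was among the most variable of the 8, with an SD of 0.24 in the mutants and 0.20 in the siblings, and replicate 2 was lowest in both groups. The difference was -0.09 ± 0.13 (95% interval -0.38 to 0.21, limma adjusted p = 0.748), the widest interval of the 8. Without mutant replicate 2 it was 0.05.

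tyrp1b encodes a tyrosinase-related protein of the melanosome. Its window (chromosome 1, 18637866 to 18641866) read 5.50, 5.55 and 5.41 in the mutants and 5.61, 5.57 and 5.50 in the siblings. Mutant replicates 1 and 3 lay below the lowest sibling and mutant replicate 2 lay within their range. The difference was -0.08 ± 0.07 (95% interval -0.23 to 0.08, limma adjusted p = 0.562).

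pmela encodes the premelanosome protein, whose amyloid fibrils form the sheets on which melanin is laid down. Its window (chromosome 11, 3184437 to 3188437) read 6.31, 5.90 and 6.19 in the mutants and 6.14, 5.87 and 6.22 in the siblings. As at tyr, replicate 2 was the lowest in both groups, and the groups overlapped. The difference was 0.06 ± 0.11 (95% interval -0.19 to 0.30, limma adjusted p = 0.812). Without mutant replicate 1 it was -0.03, without mutant replicate 2 it was 0.17 (limma adjusted p = 0.329), and neither was called.

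kita encodes the receptor tyrosine kinase that melanophores need in order to migrate and survive. Its window (chromosome 20, 22476728 to 22480728, minus strand) read 7.05, 7.06 and 7.28 in the mutants and 7.11, 7.29 and 7.37 in the siblings. The 2 lower mutant replicates lay below all siblings and the third lay within their range. The difference was -0.13 ± 0.09 (95% interval -0.31 to 0.06, limma adjusted p = 0.407), in size the largest of the 8.

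The iridophore genes were those of a receptor and of an enzyme. ltk encodes the receptor tyrosine kinase that sets the iridophore fate in the neural crest. Its window (chromosome 17, 31464447 to 31468447, minus strand) read 5.53, 5.78 and 5.85 in the mutants and 5.78, 5.88 and 5.83 in the siblings. Mutant replicate 1 stood low, and the other mutants lay within the sibling range or just below it. The difference was -0.11 ± 0.09 (95% interval -0.29 to 0.07, limma adjusted p = 0.454), and without mutant replicate 1 it was -0.02.

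pnp4a encodes a purine nucleoside phosphorylase, an enzyme of the purine pathway that supplies guanine for the crystals. Its window (chromosome 11, 24050514 to 24054514) read 5.23, 5.19 and 5.20 in the mutants and 5.35, 5.25 and 5.37 in the siblings. This was the only window of the 8 where all mutant means lay below all sibling means, as they did at 14% of the tested windows. A separation in either direction was seen at 29.6%. The single libraries overlapped, from 5.12 to 5.27 in the mutants and from 5.16 to 5.51 in the siblings. The difference was -0.12 ± 0.07 (95% interval -0.27 to 0.03, limma adjusted p = 0.336), and after cyclic loess normalization the replicate means overlapped too.

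Across the set, 0 of 8 windows passed a limma adjusted p of 0.05, where 11.6% of all tested windows passed (1790 of 15431, with 8.02% higher and 3.58% lower). Also 0 of 8 had an unadjusted limma p under 0.05, where 24.7% of all tested windows had one. Between a mean log2 signal of 5 and 8, where all 8 genes lie, 6.58% of windows passed. By band this was 1.01% between 5 and 6, which holds 4 of the genes. It was 6.23% between 6 and 7 (3 genes) and 10.8% between 7 and 8 (1 gene). With shares this low, 0 of 8 does not set the genes apart. Once same-numbered replicates were blocked 23.5% of windows passed (3621), and again 0 of 8. In that fit 1 of 8, pnp4a, had an unadjusted p under 0.05 (limma adjusted p = 0.126), against 36.4% of all windows. The shares of 24.7%, 23.5% and 36.4% are over all signal levels. Those for windows between 5 and 8 were not computed, so these counts do not set the genes apart either. In the comparison without the block, the intervals bound the differences in whole-embryo signal that could have been missed. They do not bound a change within the pigment cells alone. The lowest lower bound was -0.38, a 1.30-fold lower signal at tyr, and the highest upper bound was 0.30, a 1.23-fold higher signal at pmela. The smallest absolute difference among all called windows was 0.22. Cyclic loess normalization put the upper bound at pmela at 0.35 and the lower bound at tyr at -0.32. These bounds hold on the scale of the library columns, which is not that of the authors' fold changes. The median absolute log2 fold change in the authors' deposited table was 2.25 times the median absolute difference of the columns for windows with a signal between 5 and 6, and 1.28 times at 10 or more.

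**Figure D2:**
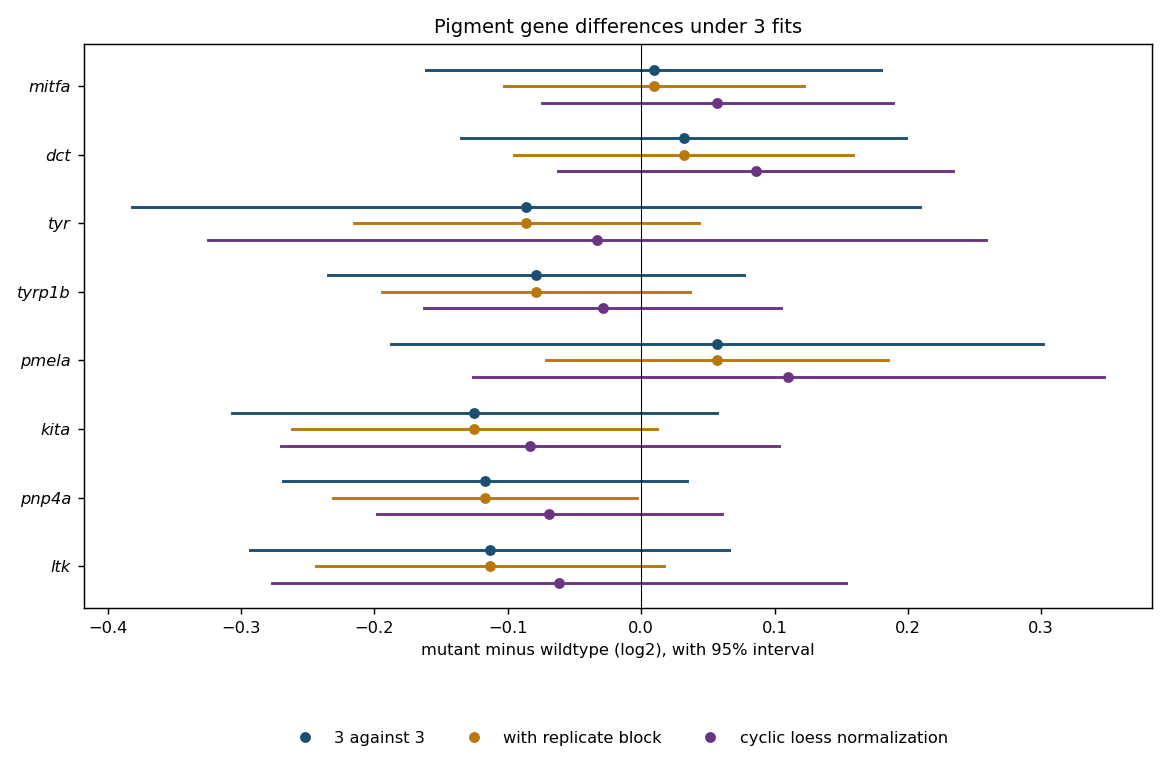
Difference between mutants and wildtype siblings at the 8 windows (x axis, log2, lines are 95% intervals) in the comparison of 3 replicates with 3, with the replicate block, and after cyclic loess normalization. The block narrows the intervals, cyclic loess moves all 8 points upward, and the intervals cover 0 except that of pnp4a with the block, which ends at -0.00.

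By sign, 3 of the 8 differences were above 0 (mitfa, dct and pmela) and 5 below (tyr, tyrp1b, kita, ltk and pnp4a), with a median of -0.08 against -0.02 over all tested windows. The median absolute difference was 0.08, against 0.10 over all tested windows and 0.34 over the called ones. Replicates of the same number tended to lie high or low together, as at tyr and pmela, so differences were also taken within numbers. Mutants were below the sibling replicate of the same number in all 3 pairs at tyr, tyrp1b, kita and pnp4a. At pnp4a these differences were -0.12, -0.06 and -0.17, and at kita -0.05, -0.23 and -0.09. Of all tested windows 28.1% were lower in all 3 pairs, and 34.9% of those in the range of signal from 5 to 8. After cyclic loess normalization 2 of the 8 were lower in all 3 pairs, kita and pnp4a, and 25.6% of all tested windows.

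**Figure D3:**
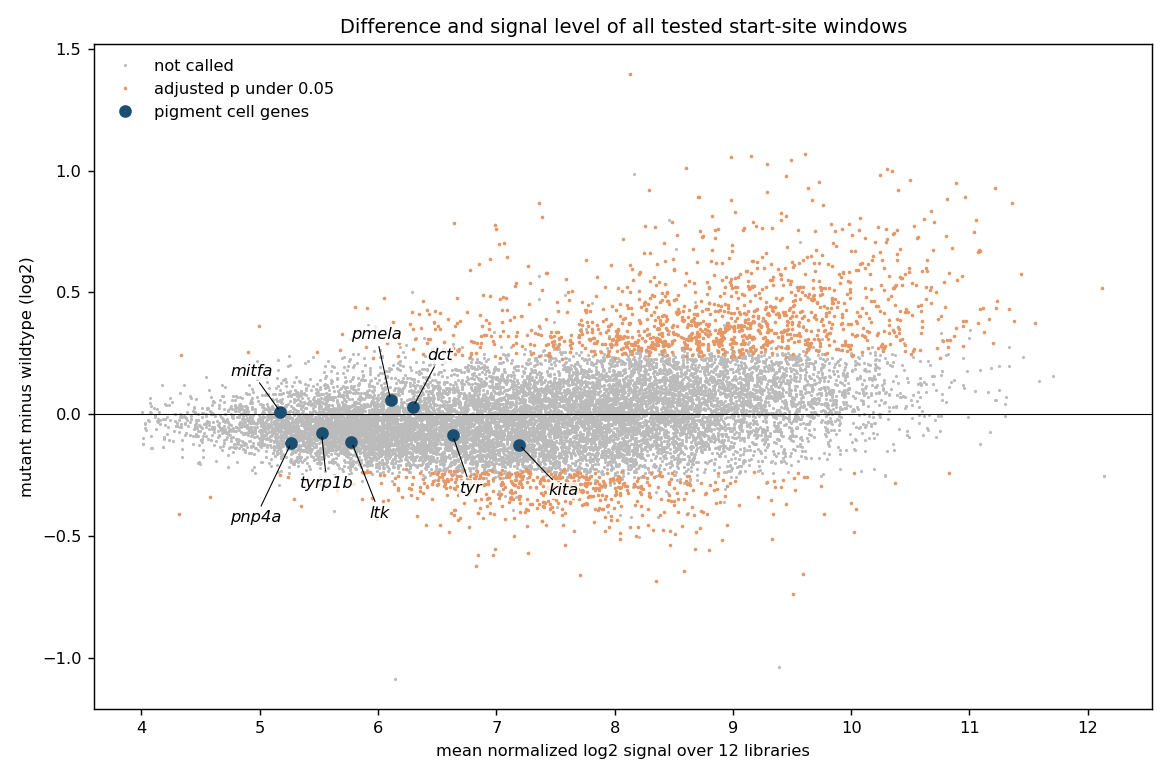
Difference between mutants and wildtype siblings (y axis, log2) against mean normalized log2 signal over 12 libraries (x axis) for the 15431 tested windows. Orange points passed a limma adjusted p of 0.05, and the 8 pigment genes, in blue, lie among the grey points that did not, on the weaker side of the range.

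Signal level moved with the sign of the difference over the whole table. The median difference was -0.05 for windows with a mean log2 signal between 5 and 6, where mitfa, pnp4a, tyrp1b and ltk lie, and 75.5% of those windows were below 0. It was -0.06 between 6 and 7, where pmela, dct and tyr lie, -0.03 between 7 and 8, where kita lies, and 0.21 at 10 or more. After cyclic loess normalization these medians were -0.00, -0.00, 0.00 and -0.02. The 8 differences then became 0.06 for mitfa, 0.09 for dct, -0.03 for tyr, -0.03 for tyrp1b, 0.11 for pmela, -0.08 for kita, -0.06 for ltk and -0.07 for pnp4a, each closer to 0 or further above it. No sign changed and no window was called.

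Technical repeats set a scale for these differences. At mitfa and dct all 6 technical pairs differed by more than the groups did, at tyr, pmela and ltk 5 of 6, at pnp4a 4, at kita 3 and at tyrp1b 2. The widest gaps were 0.35 at pmela and 0.32 at pnp4a, both in wildtype replicates. The SD between technical repeats was 0.13 at pnp4a, larger than the 0.05 between its biological means, whereas at tyr it was 0.14 against 0.22. The technical SD is that of single libraries and the biological SD that of means of 2, so they are on unlike scales. Gaps between single libraries likewise vary more than a difference between group means. In the 3 wildtype replicates and in mutant replicate 2 the repeats differed in how widely their values spread over all windows (SD lower by 0.117 to 0.137 in one repeat). The narrower repeats of the 3 wildtype replicates (SD 1.28, 1.33 and 1.34) spread less than every mutant library (1.40 to 1.53). The wider repeats of these replicates (1.41, 1.47 and 1.46) lay within the mutant range. The narrower repeat was the higher one at 8 of the 8 genes in mutant replicate 2 and at 7, 7 and 6 of 8 in wildtype replicates 1, 2 and 3, with median gaps of 0.14 to 0.19. After cyclic loess normalization those median gaps were between -0.02 and 0.09. In mutant replicates 1 and 3, where the spreads differed by 0.00907 and 0.0021, the narrower repeat was higher at 1 and 3 of the 8. The part of this spread in the group differences was not tested beyond that normalization.

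The neighbouring start sites of the 8 genes were read as well. No other tested window overlapped theirs. Within 100 kb there were between 0 (ltk) and 6 (pmela) tested windows, 20 over the 8 genes. Of these 20, 2 passed, both higher in the mutants, where 11.6% of all tested windows passed. One was sox21b, a SoxB2 transcription factor gene 51.3 kb from dct (0.44 ± 0.08, limma adjusted p = 0.00178), and the other rbm39a, a splicing factor gene 49.3 kb from pnp4a (0.47 ± 0.09, limma adjusted p = 0.00154). Both windows are strong, with a mean log2 signal of 9 to 10 and 8 to 9, where 25.3% and 16.1% of windows passed. pdgfra, another receptor tyrosine kinase gene, lies 85.8 kb from kita and differed by 0.05 ± 0.07.

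The wider pigment pathways were described through 7 lists. They hold 139 genes, of which 115 were tested at their window of highest signal. Over the lists 5 genes were higher and 6 lower, 9.57% of those tested, near the 11.6% of all windows, and 10 and 14 with the replicate block. The calls of gch1, tfap2e, sox9a and id3 held in all fits that left out 1 replicate, and those of the other 7 did not.

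Of 18 tested melanophore and melanin genes, 0 passed, and the list median was -0.02, against -0.02 over all tested windows. The nearest to the threshold, named after their values were seen, were mc1r, the melanocortin receptor gene (0.21 ± 0.07, limma adjusted p = 0.0624), gpr143, a melanosomal receptor gene (-0.26 ± 0.09, 0.0639), and trpm1b, a cation channel gene (-0.22 ± 0.07, 0.0668). mc1r read 7.40, 7.35 and 7.41 in the mutants and 7.16, 7.19 and 7.19 in the siblings, without overlap. All mutants lay above all siblings at 15.5% of the tested windows. With the replicate block these 3 passed, mc1r higher (limma adjusted p = 0.0223) and gpr143 and trpm1b lower (0.00664 and 0.0191). The share over all tested windows was then 23.5%. After cyclic loess normalization without the block mc1r (0.25, limma adjusted p = 0.0276) and gpr143 (-0.27, 0.0423) passed as well, and trpm1b did not (-0.17, 0.159). The melanosomal transporter genes slc24a5 and slc45a2 lay at -0.01 ± 0.09 and -0.04 ± 0.08.

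Of 17 tested iridophore and purine genes, alx1, a homeobox gene, and mpv17, a mitochondrial membrane protein gene whose loss removes iridophores, fell, and the other 15 missed the threshold. The median was -0.09. alx1 differed by -0.26 ± 0.07 (limma adjusted p = 0.0334) and mpv17 by -0.26 ± 0.08 (0.0465). When mutant replicate 3 was left out alx1 no longer passed (0.163), nor when any wildtype replicate was (0.133, 0.0667 and 0.0833 for numbers 1 to 3). For mpv17 the same held for mutant replicate 1 (0.113), mutant replicate 3 (0.171) and each wildtype replicate (0.141, 0.13 and 0.0935). After cyclic loess normalization the differences were -0.20 for alx1 and -0.23 for mpv17, not called without the block (limma adjusted p = 0.0729 and 0.0845) and called with it (0.0241 and 0.0209). The block alone gave the list 0 higher and 2 lower, again alx1 and mpv17. Of the purine synthesis genes, which act upstream of guanine, gmps, the GMP synthetase gene, lay at -0.04 ± 0.08 and was called lower after cyclic loess normalization (-0.23, limma adjusted p = 0.0232), though not with the block alone (0.589). Others lay at 0.06 (paics), 0.03 (atic), -0.06 (gart), -0.12 (prps1b), -0.16 (adsl) and -0.17 (impdh1a), and none of these 6 passed. The windows of paics and ppat (chromosome 20, starts 25724972 and 25725118) overlap and read nearly alike (0.06 and 0.07). They are counted as separate genes in this list and its median.

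Of 18 tested xanthophore and pteridine genes, gch1 fell and the other 17 missed the threshold. The median was -0.00. gch1 encodes GTP cyclohydrolase, the first enzyme of pteridine and tetrahydrobiopterin synthesis, which catecholamine neurons use as well. It read 8.49, 8.44 and 8.66 in the mutants and 8.89, 8.88 and 9.01 in the siblings, a difference of -0.40 ± 0.08 (1.32-fold lower, chromosome 17, 15139310 to 15143310, limma adjusted p = 0.00383). Its duplicate gch2, the form used by pigment cells, lay at -0.23 ± 0.07 and did not pass (limma adjusted p = 0.0518). With the replicate block 2 genes of the list were called higher and 4 lower, where 23.5% of all tested windows passed. The higher ones were spra, the sepiapterin reductase gene (0.22, limma adjusted p = 0.0239), and aox5, an aldehyde oxidase gene (0.19, 0.0426). Besides gch1 the lower ones were gch2 (-0.23, limma adjusted p = 0.0134), pax7a, a xanthophore fate regulator (-0.20, 0.04), and akr1b1, an aldo-keto reductase gene (-0.22, 0.0183). Under cyclic loess without the block gch1 alone was called (-0.47, limma adjusted p = 0.00139). csf1ra, the xanthophore receptor gene, lay at 0.00 ± 0.07.

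Among 23 tested regulators of the neural crest and its pigment progenitors, 3 rose, 2 fell and the other 18 missed the threshold. Of all tested windows 11.6% passed. The median was -0.01. sox9a, a cartilage regulator, rose by 0.47 ± 0.09 (limma adjusted p = 0.00255), id3, an inhibitor of helix-loop-helix factors, by 0.44 ± 0.08 (0.0012), and mycn, a proliferation factor, by 0.30 ± 0.08 (0.0207). These 3 windows have a mean log2 signal of 9 to 10, where 25.3% of windows passed (411 higher and 22 lower). After cyclic loess normalization sox9a lay at 0.29 and id3 at 0.27, still called (limma adjusted p = 0.0255 and 0.026). tfap2e (chromosome 19, 47894210 to 47898210), an AP-2 factor gene expressed in melanophores, fell by 0.39 ± 0.07 (0.00155), from 7.41, 7.46 and 7.51 in the siblings to 7.12, 7.06 and 7.03 in the mutants. nrg1, an ErbB receptor ligand gene, fell by 0.23 ± 0.07 (0.0495). In all 6 fits that left out 1 replicate nrg1 no longer passed (0.0747, 0.143 and 0.067 for mutant numbers 1 to 3, and 0.124, 0.143 and 0.121 for wildtype numbers 1 to 3). When mutant replicate 2 (0.0532), mutant replicate 3 (0.0729), wildtype replicate 1 (0.0744) or wildtype replicate 3 (0.124) was left out, mycn did not pass. Under cyclic loess nrg1 lay at -0.19, not called without the block (limma adjusted p = 0.0978) and called with it (0.0448), and mycn lay at 0.15, not called in either fit (0.203 and 0.0842). The list had 4 genes higher and 4 lower with the replicate block alone, and 2 higher and 3 lower with cyclic loess alone. The block alone called 23.5% of all tested windows. tfap2c, another AP-2 gene, lay at -0.25 ± 0.08 (limma adjusted p = 0.0614) and was called lower with the block (0.00593) and after cyclic loess (-0.32, 0.012). tfap2b, of the same family, lay at -0.19 ± 0.08 (limma adjusted p = 0.146) and was likewise called lower with the block (0.0333) and after cyclic loess (-0.30, 0.0362). sox9b, the duplicate of sox9a, lay at 0.24 ± 0.09 (limma adjusted p = 0.114) and was called higher with the block (0.0145) but not after cyclic loess (0.12, 0.384). sox10 and foxd3, crest factors, lay at -0.15 ± 0.09 and -0.17 ± 0.09 and did not pass, and tfec, a Mitf relative of iridophores, lay at -0.06 ± 0.08.

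Of 8 tested genes of the Kit and Ltk signalling list, which includes kita and ltk, kitlga fell and the other 7 missed the threshold. The median was -0.10. kitlga, the ligand that melanophores read through Kita, read 6.77, 6.69 and 6.60 in the mutants and 6.93, 6.91 and 6.96 in the siblings (-0.24 ± 0.07, limma adjusted p = 0.0381). It did not pass when mutant replicate 2 (0.071), mutant replicate 3 (0.168) or any wildtype replicate (0.109, 0.0802 and 0.128 for numbers 1 to 3) was left out. Under cyclic loess it lay at -0.19, not called without the block (limma adjusted p = 0.0906) and called with it (0.038), and with the block alone it was the 1 call of the list (0.0114). Its duplicate kitlgb lay at -0.14 ± 0.07 and the receptor duplicate kitb at 0.03 ± 0.08. The Ltk ligand genes alkal1, alkal2a and alkal2b were not analysed here.

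Many of the 8 genes have duplicates or close relatives, and of 11 such genes tested 0 passed, with a median of -0.06. mitfb, the duplicate of mitfa used in the eye, had a far stronger window (8.20 ± 0.07 in the siblings) and lay at 0.22 ± 0.08 without passing (limma adjusted p = 0.0848, and 0.0141 with the replicate block). pmelb lay at -0.06 ± 0.07 and pnp4b at -0.06 ± 0.07. Of 25 tested lysosome and trafficking genes that melanosomes depend on, 2 rose and 23 did not pass, with a median of -0.01. atp6v0ca, a proton pump subunit gene, rose by 0.35 ± 0.08 (limma adjusted p = 0.0089), but did not pass when mutant replicate 3 (0.0518) or wildtype replicate 1 (0.0561) was left out. bloc1s2, of the BLOC-1 complex, rose by 0.27 ± 0.08 (0.0495), but did not pass when mutant replicate 2 (0.197), mutant replicate 3 (0.0741) or any wildtype replicate (0.2, 0.0502 and 0.139 for numbers 1 to 3) was left out. Under cyclic loess bloc1s2 lay at 0.09 and was not called without the block (limma adjusted p = 0.502) or with it (0.302). atp6v0ca then lay at 0.23 and was called without the block (limma adjusted p = 0.0302). The windows of both genes have a mean log2 signal of 9 to 10, where 25.3% of windows passed (411 higher and 22 lower). With the block alone both passed, and bloc1s3, of the same complex (-0.21 ± 0.08, limma adjusted p = 0.0759), was called lower (0.0207).

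**Figure D4:**
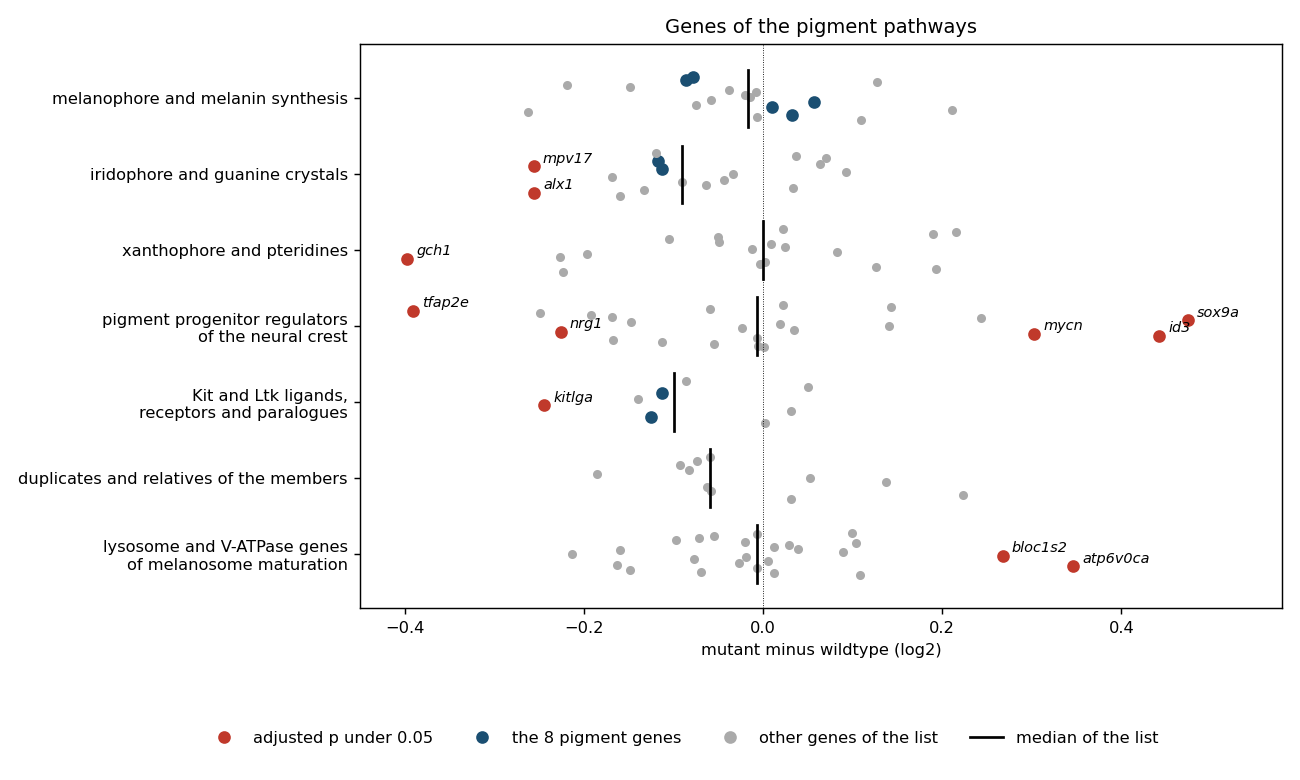
Difference between mutants and wildtype siblings (x axis, log2) for the tested genes of 7 pigment pathway lists (rows), with vertical offsets for legibility only. Red points passed a limma adjusted p of 0.05 and carry their names, dark blue points are the 8 pigment genes, grey points the other genes, and black bars list medians. The 8 pigment genes lie between -0.13 and 0.06.

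Marker genes of other cell types were read beside the 8 genes. Over all tested windows 11.6% passed, the share beside which each count below stands. Of 8 tested markers of the retinal pigment epithelium 0 passed, with a median of -0.10. Their mean signal per replicate was 6.62 to 6.72 in the mutants and 6.67 to 6.77 in the siblings. With the replicate block mitfb was called higher and rgra, a retinal opsin gene (-0.21, limma adjusted p = 0.0168), lower, and after cyclic loess neither was. The visual cycle gene rpe65a, which defines that tissue, was among the weakest, at 5.13 ± 0.03 (SD, n = 3) in the siblings. Of 4 germ cell and 7 blood and mast cell markers, listed for Kit, 0 passed (medians -0.07 and -0.08). Of these, ddx4, piwil1, gata1a, spi1b and mpx lie between a signal of 5 and 6, where 1.01% of windows passed. cpa5 and lcp1 lie between 4 and 5, where 1.08% passed. With shares this low, 0 calls do not set those genes apart. The blood and mast cell marker lcp1, a leukocyte actin-bundling protein gene, lay at 0.20 ± 0.07 (limma adjusted p = 0.0852). It was called higher with the block (0.0117) and after cyclic loess (0.25, 0.0319). Of 10 markers of peripheral glia and enteric neurons, other crest derivatives, plp1a, a myelin protein gene, fell (-0.52 ± 0.08, limma adjusted p = 0.000443). With the block 4 of these 10 were called lower, the others being plp1b (-0.20, limma adjusted p = 0.0194), mpz (-0.21, 0.015) and phox2ba (-0.20, 0.0245), while after cyclic loess plp1a alone was called. Over all 15431 tested windows the block called 23.5% in either direction (3621 windows), of which 1461 were lower. The mean signal of these 10, which include plp1a, was 7.43 to 7.50 in the mutants and 7.59 to 7.63 in the siblings, without overlap. The means of the Kit and Ltk list did not overlap either (6.06 to 6.08 against 6.15 to 6.16). Those of every other pathway or marker list overlapped. The iridophore list, which holds ltk and pnp4a, overlapped only barely (7.5444 to 7.6123 in the mutants and 7.6117 to 7.7017 in the siblings). How often list means separate over all windows was not computed. Weak windows leaned lower over the whole table. Between a signal of 5 and 6, 75.5% were below 0, and between 6 and 7, 68.7%. Cyclic loess normalization moved the Kit and Ltk list median from -0.10 to -0.05 and that of these 10 markers from -0.16 to -0.15. It moved the iridophore list median from -0.09 to -0.08. Of the 10, elavl3, a neuronal gene, lay above 0 (0.16 ± 0.08, limma adjusted p = 0.274). Of 3 cartilage markers sox9a rose and col2a1a, a cartilage collagen gene, fell (-0.40 ± 0.08, 0.002). The part of any of these in the values of the 8 genes was not tested.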

How the data were processed

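ATAC-seq libraries of supt16h mutants and wildtype siblings, 6 per group, were compared at annotated start sites. The submitters' processing notes name CASAVA 1.8, FastQC 0.11.2, HOMER 4.9 and the build GRCz10 (danRer10). The aligner, read filters, duplicate removal and any Tn5 shift are unknown, being not given in the sources used here. The library columns are normalized log2 values deposited by the authors, who do not name the transformation per the file headers. The authors' deposited table also holds a log2 fold change and p-values for mutant versus wildtype, with the test not named.

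Of 16555 entries, repeats of a window were averaged (largest difference 0.219), leaving 15674 windows. Technical pairs, known from column names, were averaged, and windows with a mean log2 value of at least 4 entered a limma test (version 3.58.1, R 4.3.3, trend and robust eBayes, Benjamini-Hochberg over 15431 windows, threshold 0.05). Nothing says how the biological replicates were separated, so p-values measure the spread between these samples. The script was run on simulated data whose replicates varied independently, without pairing and without a shift by signal level. That run checks the code and not the error rate in these data. Same-numbered replicates of the groups deviated together (correlations 0.461, 0.513 and 0.534 over windows). The others were below 0, which largely follows from these once group means are subtracted, and is no separate support. The numbers were therefore taken to pair the samples, from the data and not the labels. Calls with the number as a block are given wherever they change those of a list. Alternatives were 2 other filters, quantile, cyclic loess and median normalization, libraries kept apart, the block, plain limma, and leaving out each replicate. Genes named by rule are the 8 members and called genes of 7 pathway and 5 marker lists (up to 6 a list), and all others named were chosen after their values were seen. Members and lists were chosen with earlier results of these data known, and genes of a list may stand in several lists. Figures used matplotlib 3.10.9. Promoter and protein sequences were not used here.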

Additional observations from a re-analysis of the deposited data

How the results depend on the processing

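None of the 8 pigment windows was called under the 15 alternatives that were run (14 for mitfa, tyrp1b, ltk and pnp4a, which a minimum mean log2 signal of 6 removes), and the lowest limma adjusted p was 0.126, for pnp4a with the replicate block. Differences stayed below 0 under these alternatives at kita (-0.20 to -0.07), ltk (-0.18 to -0.02), pnp4a (-0.15 to -0.06) and tyrp1b (-0.11 to -0.03). The other 4 changed sign only when 1 replicate was left out, with ranges over those fits of -0.037 to 0.083 at mitfa, -0.023 to 0.081 at dct, -0.20 to 0.046 at tyr and -0.046 to 0.17 at pmela, and the cause was not tested. The count of called windows (1790, 1238 higher and 552 lower) was 3621 with the replicate block (2160 and 1461), 3214 with cyclic loess and the replicate block (1481 lower) and 2969 with 12 libraries kept apart (1139 lower). Leaving out 1 replicate gave 1056 to 2223 calls, 780 to 1587 higher and 248 to 636 lower, from fewer samples. The split was 973 higher and 771 lower after quantile normalization, 1012 and 705 after cyclic loess and 1593 and 375 with library medians set equal. The replicate block changed no call among the 8 genes. Depth is unknown, so how much of the width of these intervals is counting error cannot be given.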
